A study of Sus scrofa with 20 samples.

Results

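SLC2A4 and TBC1D1 are a pair of genes of insulin-driven glucose uptake, and their transcripts were followed over 20 libraries of backfat, a subcutaneous fat depot of the pig. They were found by matching the Ensembl identifier of each locus, a Cufflinks transcription unit, to a gene symbol, and each symbol had 1 locus, so they make 2 of the 23483 loci in the tables. The 20 pigs, of the Italian Large White breed, gave 1 library each; 10 were female and 10 were male and castrated, and all shared housing and diet and weighed 150 to 160 kg. Females were 235 to 250 days old (mean 244 ± 5.64 days, SD, n = 10) and castrated males 233 to 249 days (240 ± 4.53 days, SD, n = 10). Polyadenylated RNA was read as 100 bp pairs, and library totals ran from 25754778 to 51248122 counts with a median of 36922247. Within each sex the libraries carry numbers taken from accession order, which pair no animals.

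SLC2A4 encodes GLUT4, the glucose transporter that fat and muscle cells hold in vesicles inside the cell and move to the surface when insulin acts. Insulin acts through its receptor, IRS proteins, PI3-kinase and AKT, and AKT phosphorylates the Rab GTPase-activating proteins TBC1D4 and TBC1D1, which otherwise keep Rab proteins of the GLUT4 vesicles inactive. TBC1D1 is also a target of the energy sensor AMPK and is best studied in skeletal muscle, while TBC1D4 is the better known of the pair in fat cells. In the fat cell the glucose taken up can be burnt, stored as glycogen, or turned into fatty acids by the enzymes of lipogenesis.

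The libraries labelled female 10 and castrated male 10 went against their labels. The other 9 females and 9 castrated males were apart by at least 4-fold at 11 of 21587 loci, and at 11 of these the library labelled female 10 had a level of the castrated males, and at 11 the one labelled castrated male 10 had a level of the females. Castrated male 1 also stood apart from the rest, with the highest summed level of 8 matched macrophage markers (1259 CPM, TMM-scaled counts per 1e6 counts of a library) and the lowest summed level of 6 fibroblast markers (6953 CPM). Results that these libraries moved are given with and without them. Of the 10 adipocyte markers listed, 6 had a locus, PLIN1, CIDEC, PNPLA2, LIPE, PPARG and PLIN4, and their sum ran from 2689 to 7680 CPM. PPARG is also in the list of SLC2A4 regulators, and CIDEC in the lipogenesis list. The PLIN1 locus, with a mean of 1233 CPM, spans PEX11A as well. In the macrophage sum the CD68 locus, with a mean of 131 CPM and 205 CPM in castrated male 1, spans EIF4A1 as well. Both sums thus hold reads of genes that are not markers. Of 15 skeletal muscle markers, 3 had a locus, ACTA1, TNNC2 and PYGM, and their sum ran from 4.94 to 14.9 CPM. In bulk tissue, fewer cells of a type and less RNA per cell cannot be told apart.

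SLC2A4 (ENSSSCG00000023915) was a low transcript that varied 3.13-fold between animals, from 1.47 to 4.61 CPM, with a mean of 2.74 ± 1.03 CPM (SD, n = 20). The counts behind it were few, 41 to 230 per library. In females the lowest value was 1.67 CPM (female 9), the median 2.42 and the highest 4.61 (female 1). In castrated males the lowest was 1.47 CPM (castrated male 1), the median 2.54 and the highest 4.54 (castrated male 4). The sexes overlapped over nearly the whole range. Of the females, female 1, female 4 and female 6 were high, at 4.61, 3.71 and 3.71 CPM, while female 7 and female 9 were low, at 1.75 and 1.67. Of the castrated males, numbers 4, 7 and 3 were high, at 4.54, 4.42 and 3.59 CPM, and numbers 1, 9 and 10 were low, at 1.47, 1.61 and 1.55. The remaining 9 libraries stood between 2.08 CPM (female 2) and 3.12 CPM (the library labelled female 10). The spread of SLC2A4 within the sexes, an SD of 0.542 in log2 CPM, was near that of other loci at its level: the median was 0.494 over 2358 loci within 1.5-fold of its mean, and 58.2% of them varied less.

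TBC1D1 (ENSSSCG00000028983) averaged 20.1 ± 5.43 CPM (SD, n = 20), from 12.5 to 35.7 CPM, on 419 to 1505 counts per library. In females it ran from 13.9 CPM (female 7) through a median of 19.9 to 26.7 (female 8). In castrated males it ran from 12.5 CPM (castrated male 4) through a median of 19.1 to 35.7 (castrated male 1). Castrated male 1 was the highest library for TBC1D1 and the lowest for SLC2A4, and castrated male 4 was the lowest for TBC1D1 and second only to female 1 for SLC2A4. Without castrated male 1 the TBC1D1 range narrowed from 2.86-fold to 2.14-fold, 12.5 to 26.7 CPM, and the SD fell from 5.43 to 4.11 CPM. The spread of TBC1D1 within the sexes was an SD of 0.378 in log2 CPM, against a median of 0.288 over 2618 loci of like level, of which 72.7% varied less.

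**Figure D1:**
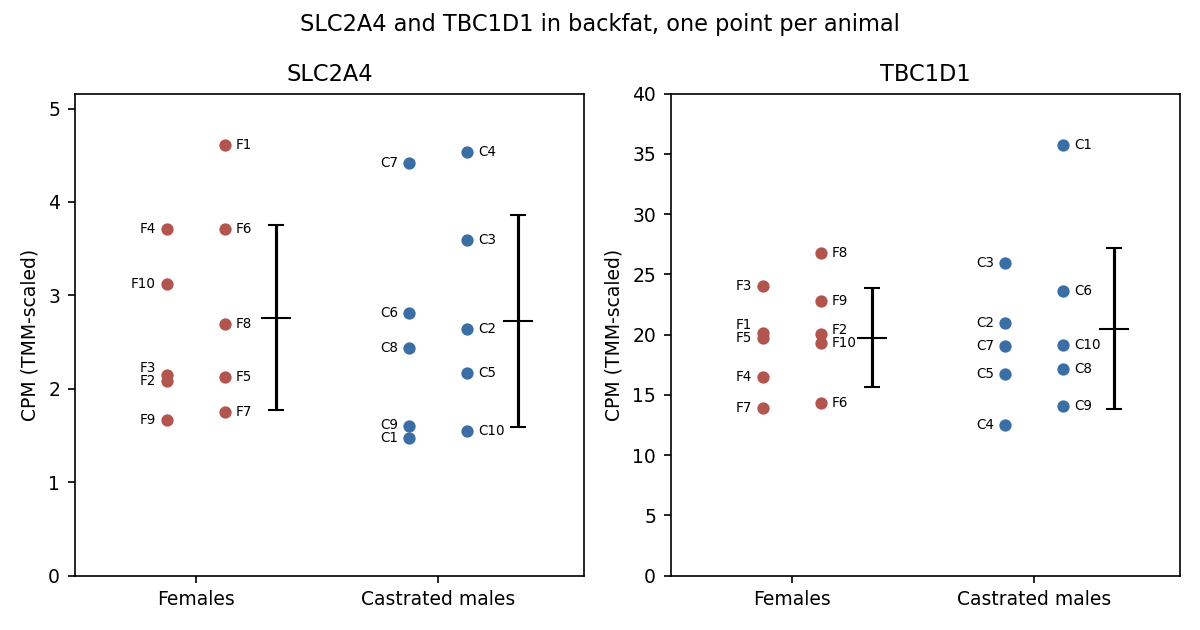
CPM (TMM-scaled, linear axis from 0) of SLC2A4 and TBC1D1 in each animal by labelled sex, 1 point per library (F, female; C, castrated male), with the mean and SD of each group beside the points. The sexes overlap for both genes, and castrated male 1 (C1) is the lowest library for SLC2A4 (1.47 CPM) and the highest for TBC1D1 (35.7 CPM).

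Neither gene passed the test between females and castrated males. SLC2A4 averaged 2.76 ± 0.988 CPM (SD, n = 10) in females against 2.72 ± 1.13 CPM (SD, n = 10) in castrated males. Its log2 difference was 0.02 (SE 0.241), with an adjusted p = 1.0 by edgeR's quasi-likelihood test. TBC1D1 averaged 19.7 ± 4.11 CPM in females and 20.5 ± 6.71 in castrated males, a log2 difference of -0.05 (SE 0.163), again with an adjusted p = 1.0. Both differences were smaller than their standard errors. Their sign turned between settings: SLC2A4 stood at -0.06 (SE 0.251) without both libraries numbered 10 and at -0.05 (SE 0.238) without castrated male 1, and TBC1D1 at 0.07 (SE 0.140) without castrated male 1. Of 21587 loci edgeR called 0 between the sexes (0%) and DESeq2 called 6. An unadjusted p under 0.05 was reached by 935 loci (4.33%), 2.28% higher and 2.05% lower in females. The number of loci that edgeR called after adjustment rose from 0 to 13 without the library labelled female 10. It was 7 without the library labelled castrated male 10 and 18 without both.

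Neither gene passed the test for age. The SLC2A4 median was 2.14 CPM in the 10 animals of 233 to 241 days and 3.36 CPM in the 10 of 243 to 250 days, with ranges of 1.47 to 4.42 and 1.67 to 4.61 CPM that overlapped. Its log2 slope per 10 days of age, with sex in the model, was 0.42 (SE 0.250), with an unadjusted p = 0.106 and an adjusted p = 0.867 by edgeR. TBC1D1 had a slope of -0.18 (SE 0.171; adjusted p = 0.889 by edgeR) and medians of 19.9 and 18.01 CPM in the younger and older animals. That slope was -0.08 (SE 0.146) without castrated male 1. Over all loci edgeR called 0 for the age slope (0%) and DESeq2 5, while 1189 had an unadjusted p under 0.05 (5.51%), 1.78% upward and 3.73% downward. The age slopes of females and castrated males differed by -0.04 for SLC2A4 (SE 0.525; adjusted p = 0.996 by edgeR) and by 0.13 for TBC1D1 (SE 0.360; adjusted p = 0.983 by edgeR). For that difference edgeR called 0 loci (0%) and DESeq2 3, while 1170 had an unadjusted p under 0.05 (5.42%), 2.97% above 0 and 2.45% below.

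The transporter and the Rab regulator did not vary together detectably over the animals. Their log2 CPM had a Pearson r of -0.231 (permutation p = 0.329) and a Spearman rho of -0.161 (permutation p = 0.496; two-sided, n = 20). Without female 1 and castrated male 4, the libraries farthest from the SLC2A4 median, r was -0.112 (permutation p = 0.658, n = 18). Within females r was -0.190 and within castrated males -0.255 (n = 10 each). In the edgeR fit TBC1D1 had a log2 slope of -0.10 per SD of SLC2A4 (SE 0.083; adjusted p = 0.738). Castrated male 1 alone moved r by more than any other library: without it r was -0.047 (permutation p = 0.848, n = 19). Over the 20 sets that leave out 1 library, r ran from -0.350 to -0.047.

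**Figure D2:**
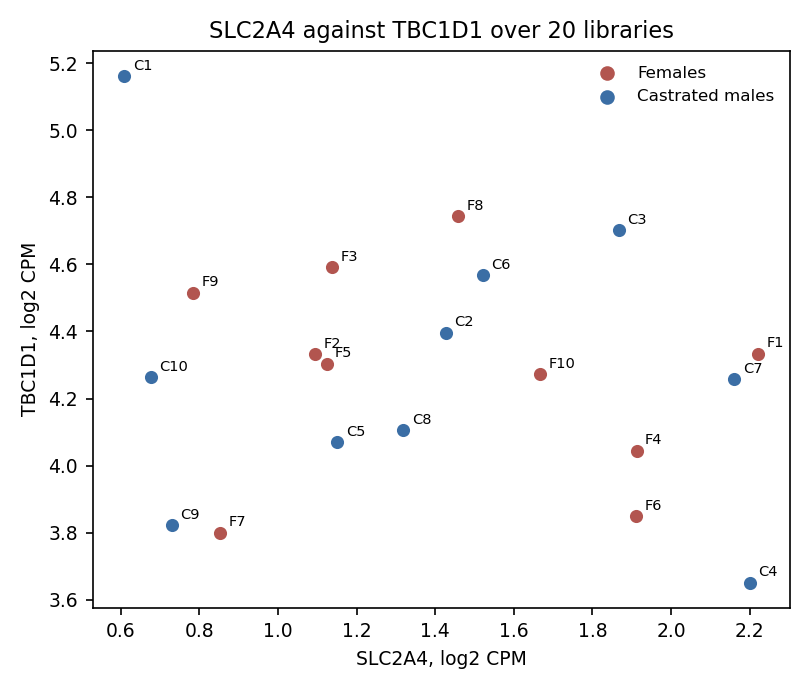
log2 CPM of TBC1D1 (vertical) against SLC2A4 (horizontal), 1 point per library coloured by labelled sex. The points show no clear line (Pearson r -0.231, n = 20), with castrated male 1 (C1) at the upper left corner and castrated male 4 (C4) at the lower right.

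Among the hexose transporters of its family, SLC2A4 ranked 5 of the 6 measured per unit of length. On the deposited FPKM scale, which divides fragments by transcript length and library size, SLC2A11 stood at 7.16 ± 1.76, SLC2A8 at 2.75 ± 0.849, SLC2A12 at 2.62 ± 0.994 and SLC2A10 at 2.23 ± 0.694 (SD, n = 20 each). SLC2A4 followed at 1.42 ± 0.542 and SLC2A6 at 0.256 ± 0.226. SLC2A12 encodes GLUT12, another transporter reported to respond to insulin, and SLC2A8 encodes GLUT8, found mainly on membranes inside the cell. SLC2A4 lay below SLC2A10 by 0.65 in log2(FPKM + 0.1) within libraries, in 18 of 20 libraries (adjusted permutation p = 0.00016), and above SLC2A6 by 2.16, in 19 of 20 (adjusted permutation p = 6e-05). Castrated male 1 was the exception for SLC2A6, with its highest value of 1.14 FPKM against 0.599 for SLC2A4. SLC2A11 exceeded SLC2A8 in 20 of 20 libraries (adjusted permutation p = 6e-05), whereas SLC2A8 and SLC2A12 (adjusted permutation p = 0.506) and SLC2A12 and SLC2A10 (0.330) did not differ beyond their spread. SLC2A1, SLC2A2, SLC2A3, SLC2A5, SLC2A9 and SLC2A13 were not matched to a locus and were not analysed here, so this order covers 6 of the 12 listed transporters. TBC1D1 stood at 12.6 ± 3.81 FPKM beside TBC1D13, another Rab GTPase-activating protein linked to GLUT4 traffic, at 13.03 ± 2.40 FPKM. The difference within libraries was 0.09 in log2(FPKM + 0.1) (12 of 20 libraries; adjusted permutation p = 0.379, 6 neighbours compared in all). TBC1D4 was not matched to a locus and was not analysed here.

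Of the genes that turn citrate and acetyl-CoA into fatty acids, FASN, ACACA and ACLY rose with SLC2A4. FASN, fatty acid synthase, had the largest slope of the named genes. It ran from 271 CPM through a median of 2211 to 4239 in females and from 83.4 through 2447 to 4582 in castrated males. In CPM the 5 libraries lowest in SLC2A4, castrated males 1, 9 and 10 and females 7 and 9, were the 5 lowest in FASN. They stood at 83.4 to 636 CPM of FASN, and the next library at 1129 CPM. In FPKM the library labelled castrated male 10 was near the SLC2A4 median, at 1.29 against 1.31. Female 3, at 0.901 FPKM of SLC2A4, was lower. FASN had a Pearson r of 0.824 with SLC2A4 (permutation p = 1e-05, the smallest that 100000 permutations can give) and a Spearman rho of 0.842 (permutation p = 1e-05; n = 20). Without female 1 and castrated male 4 r was 0.848, within females 0.870, within castrated males 0.798, without castrated male 1 0.835 and without both libraries numbered 10 0.817. In the edgeR fit with sex in the model, FASN rose by 1.16 in log2 per SD of SLC2A4 (SE 0.210; adjusted p = 0.0257).

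**Figure D3:**
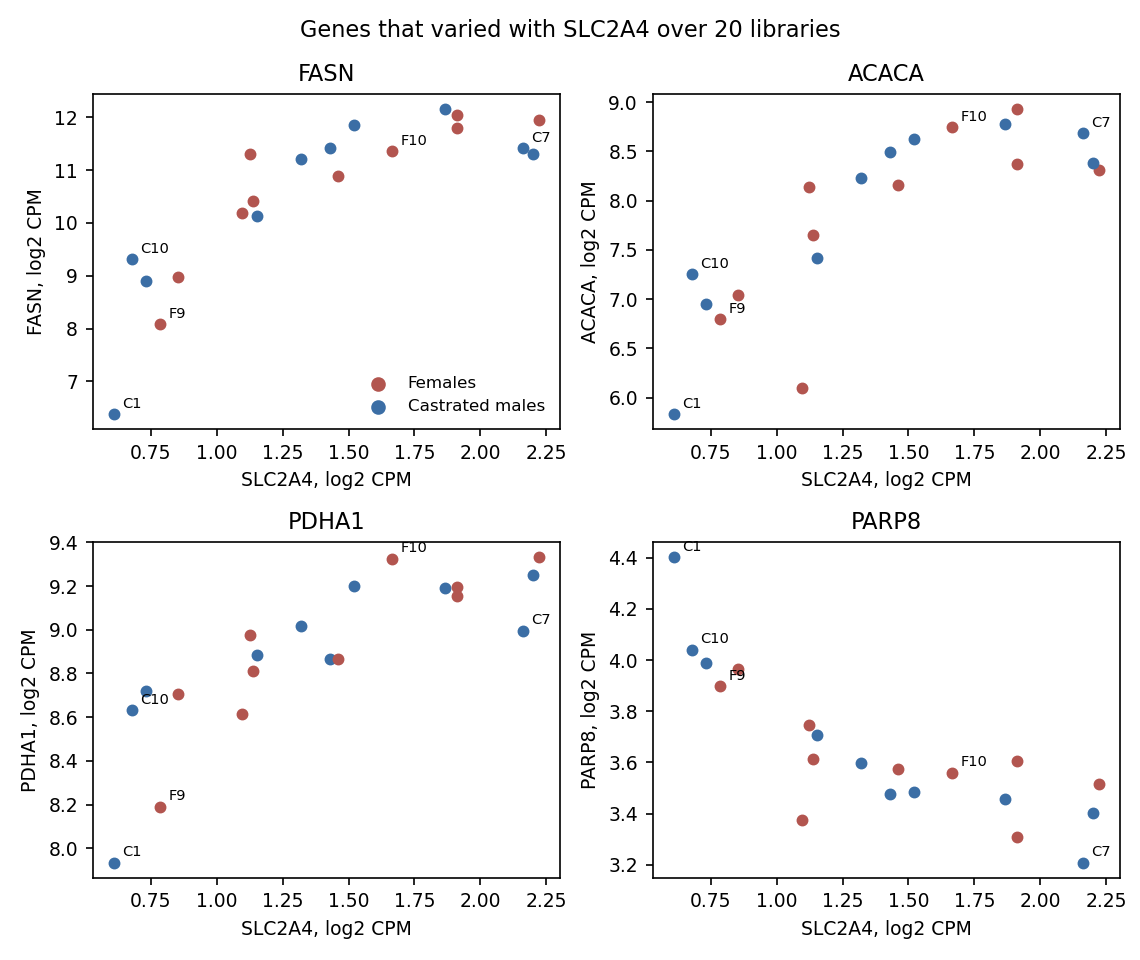
log2 CPM of FASN, ACACA, PDHA1 and PARP8 against log2 CPM of SLC2A4, 1 point per library coloured by labelled sex, with female 9 (F9), the libraries labelled female 10 (F10) and castrated male 10 (C10), and castrated males 1 (C1) and 7 (C7) named. FASN, ACACA and PDHA1 are lowest in castrated male 1 and climb with SLC2A4, while PARP8 is highest there and falls.

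Of 21586 other loci, edgeR called 38 that varied with SLC2A4 (0.176%), 35 upward (0.162%) and 3 downward (0.0139%), and 2206 had an unadjusted p under 0.05 (10.2%), 5.27% upward and 4.95% downward. Among loci with 1 gene symbol and a mean of at least 10 CPM, all but 1 of the 10 of highest r passed, with r from 0.811 to 0.831. NFS1, the cysteine desulfurase that starts iron-sulfur cluster assembly, rose by 0.33 in log2 per SD of SLC2A4 (SE 0.058; r 0.831). PDHA1, a subunit of the pyruvate dehydrogenase that feeds the citric acid cycle, rose by 0.29 (SE 0.052; r 0.814). BCAT2, which starts branched-chain amino acid breakdown in mitochondria, rose by 0.29 (SE 0.052; r 0.821). GPI, which interconverts glucose 6-phosphate and fructose 6-phosphate, rose by 0.30 (SE 0.050; r 0.816). SLC24A3, a sodium, potassium and calcium exchanger, rose by 0.50 (SE 0.082; r 0.829).

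IMMT, which shapes the inner mitochondrial membrane, and TIMM44, of the mitochondrial protein import motor, rose by 0.18 (SE 0.035) and 0.20 (SE 0.040). The 1 that did not pass, AFG3L2, a mitochondrial protease subunit, had r 0.821 but a slope of 0.13 (SE 0.030) that missed the threshold (adjusted p = 0.0693 by edgeR). Without the farthest libraries r of these 10 ran from 0.764 (AFG3L2) to 0.876 (SLC24A3). On the other side PARP8, an ADP-ribosyltransferase, fell by 0.24 in log2 per SD of SLC2A4 (SE 0.046; r -0.813; adjusted p = 0.0373 by edgeR). Its lowest level was 9.19 CPM (castrated male 7) and its highest 21.1 CPM (castrated male 1). The next lowest, UACA (r -0.781), RCAN3 (-0.761), ADGRL4 (-0.743), an adhesion receptor of endothelium, and EPS8 (-0.727), an actin regulator, had adjusted p from 0.0518 to 0.0946 by edgeR. By the permutation test of r itself, adjusted over the same 21586 loci, 80 passed.

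The number of loci called with SLC2A4 depended on which libraries were in. Leaving out 1 library gave 4 loci without the library labelled castrated male 10, 6 without female 9, 11 without castrated male 1, 15 without castrated male 9, and 18 when either female 4 or female 7 was absent. Dropping castrated male 3 left 22, female 6 or female 8 left 23, and female 2 or castrated male 8 left 25, whereas dropping castrated male 7 gave 108. Without both libraries numbered 10 it was 5, all 5 among the 38, and DESeq2 called 282, including all 38. The correlations moved less than the calls: for FASN r stayed between 0.809 and 0.849 with 1 library left out, and it passed the edgeR threshold in 16 of 20 such fits. SLC24A3 passed in 19 of the 20, GPI in 18, NFS1, BCAT2 and PDHA1 in 17, PARP8 in 9, TIMM44 in 8 and IMMT in 5.

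Of the 8 pathway lists, lipogenesis had the highest median slope on SLC2A4. Of its 15 genes 11 had a locus, and 11 of 11 had a slope above 0, against 45.2% of all loci, with a median of 0.32 against -0.013 over all loci, and 3 passed upward against 0.162% of all loci. These were FASN, ACACA, acetyl-CoA carboxylase (0.72, SE 0.127; r 0.801), and ACLY, ATP citrate lyase (0.84, SE 0.156; r 0.800). ACACA had its lowest level, 56.9 CPM, in castrated male 1 and its highest, 489 CPM, in female 4. At an unadjusted p under 0.05 there were 8 of 11 upward, against 5.27% of all loci. Of the genes that did not pass, SCD, the delta-9 desaturase, had r 0.563 with a slope of 0.52 (SE 0.237; adjusted p = 0.464 by edgeR), and LPIN1, a phosphatidate phosphatase, had r 0.116. The list had 10 of 11 above 0 and 1 call without castrated male 1, and without both libraries numbered 10 it had 10 of 11 above 0 and 0 calls by edgeR with 8 at an unadjusted p under 0.05.

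The list of glucose phosphorylation and glycogen also held calls. All 18 genes had a locus, 15 had a slope above 0, with a median of 0.11 against -0.013 over all loci, and 3 passed upward, against 0.162% of all loci: GPI, PDHA1 and GBE1, the glycogen branching enzyme (0.47, SE 0.093; r 0.779). Another 5 had an unadjusted p under 0.05 upward, for 8 of 18 in all against 5.27% of all loci. HK2, the insulin-regulated hexokinase, had r 0.612 (slope 0.37, SE 0.111; adjusted p = 0.213 by edgeR), PFKL, the liver-type phosphofructokinase, r 0.737, and PYGL, a glycogen phosphorylase, r 0.708. There was 1 call without castrated male 1, and without both libraries numbered 10 there were 0 by edgeR with 8 upward and 2 downward at an unadjusted p under 0.05.

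No gene that carries the insulin signal or moves GLUT4 passed with SLC2A4 by edgeR. From the insulin receptor to AKT, 12 of 18 slopes were above 0 with a median of 0.014, and edgeR called 0. At an unadjusted p under 0.05 edgeR gave 2 upward and 3 downward, against 5.27% and 4.95% of all loci. DESeq2 called 0 upward and 1 downward of the 18, against 225 upward and 57 downward of 21586 loci. INSR, the insulin receptor, had r 0.234 with SLC2A4, and IRS1, its main docking protein, 0.471. The locus that holds AKT2, the AKT form most tied to glucose uptake, spans CCNP and TTC9B as well and had r 0.553. PIK3R3, a regulatory subunit of PI3-kinase, had r -0.560 (adjusted p = 0.142 by edgeR). IRS2 and PIK3R1 were not matched to a locus and were not analysed here.

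Of the Rab GTPase-activating proteins and small GTPases, 6 of 9 slopes were above 0, and RAB10, the Rab of GLUT4 vesicles in fat cells, had r -0.108. Of the vesicle, tether and fusion proteins, 8 of 12 slopes were above 0, and 5 of 12 without both libraries numbered 10. LNPEP, the aminopeptidase that travels with GLUT4, had r 0.141 and SORT1, the sorting receptor of those vesicles, r 0.069. Of AMPK and 14-3-3 genes, 7 of 11 were above 0, and PRKAA1, an AMPK catalytic subunit, and CAMKK2, an AMPK kinase, had r of -0.629 and -0.520. In these 3 lists edgeR and DESeq2 called 0, and edgeR gave 0, 1 and 0 upward (5.27% of all loci) and 1, 0 and 3 downward (4.95% of all loci) at an unadjusted p under 0.05.

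Known regulators of SLC2A4 transcription gave 3 of 10 slopes above 0 (5 of 10 without castrated male 1), with 0 called by edgeR. DESeq2 called 1 upward and 1 downward of the 10, against 225 upward and 57 downward of 21586 loci. At an unadjusted p under 0.05 edgeR gave 1 upward and 2 downward, against 5.27% and 4.95% of all loci. The locus that holds MLXIPL, the carbohydrate response factor ChREBP, spans BCL7B and TBL2 as well, and had r 0.735 (slope 0.26, SE 0.058; adjusted p = 0.0695 by edgeR). PPARG, the fat cell master regulator, had r 0.339, and MEF2C, of the MEF2 family that drives SLC2A4 in muscle, r -0.686 (adjusted p = 0.111 by edgeR). KLF15 was not matched to a locus. Among the transporters, SLC2A12 had r 0.645 with SLC2A4 (slope 0.37, SE 0.109, adjusted p = 0.211 by edgeR). Of that list 3 of 5 slopes were above 0 (5 of 5 without castrated male 1). It had 0 called by edgeR, and 1 upward at an unadjusted p under 0.05 (5.27% of all loci). DESeq2 called 1 of the 5 upward, against 225 of 21586 loci.

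**Figure D4:**
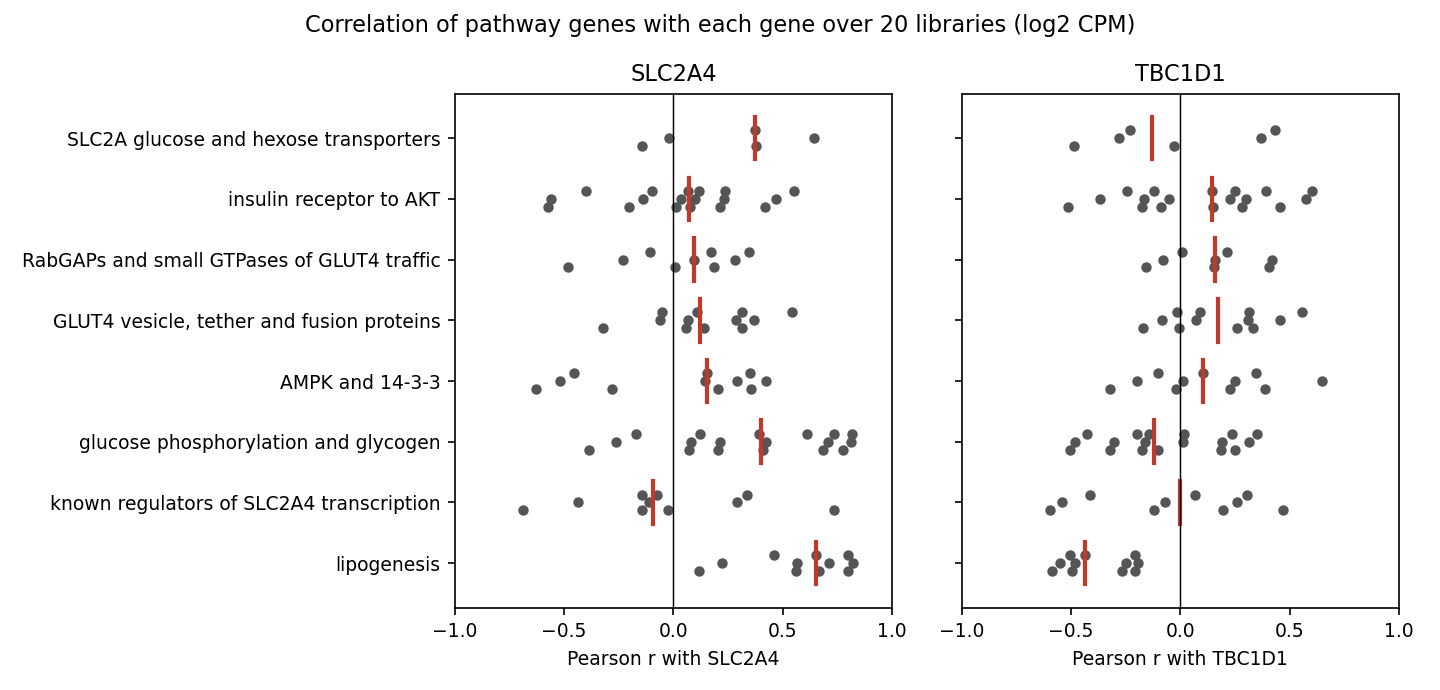
Pearson r over 20 libraries (horizontal, log2 CPM) of each gene of 8 pathway lists with SLC2A4 (left) and TBC1D1 (right), 1 grey point per locus and a red bar at the list median. Lipogenesis has a median r of 0.651 with SLC2A4 and -0.435 with TBC1D1. The latter rested on castrated male 1: the list's median slope on TBC1D1 was -0.19 with all libraries and -0.024 without it.

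Markers of fat cells moved with SLC2A4 too. The log2 of the summed CPM of the 6 adipocyte markers had a Pearson r of 0.665 with log2 CPM of SLC2A4 (permutation p = 0.00067, adjusted 0.0134) and a Spearman rho of 0.753 (adjusted permutation p = 0.0056; n = 20, 20 relations tested). Without female 3 and the library labelled castrated male 10, the farthest in adipocyte sum, r was 0.686, within females 0.376 and within castrated males 0.818. It was 0.654 without castrated male 1, 0.622 without both libraries numbered 10 and 0.585 without all 3 (permutation p = 0.00138, 0.00501 and 0.0105). The library labelled castrated male 10 had the lowest adipocyte sum, 2689 CPM, and 1.55 CPM of SLC2A4, and castrated male 9 had 3628 and 1.61 CPM. Female 9 and castrated male 1, also low in SLC2A4, had 5631 and 4328 CPM of adipocyte markers. Endothelial markers (5 of 8 matched) had r -0.505 and smooth muscle markers (7 of 8) r -0.507, both with an adjusted permutation p = 0.122, and rho of -0.574 and -0.529 (adjusted permutation p = 0.0910 and 0.119). Skeletal muscle markers, of a tissue rich in GLUT4, had r -0.138 (adjusted permutation p = 0.662). That sum was mostly PYGM, with a mean of 8.70 CPM against 0.743 for ACTA1 and 0.0108 for TNNC2. ACTA1 was highest, at 4.17 CPM, in female 1, the library highest in SLC2A4. The relation of ACTA1 alone to SLC2A4 was not tested. The part of cell makeup in the genes that varied with SLC2A4 was not tested.

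RSAD1 and YEATS2 were the 2 loci that edgeR called with TBC1D1, while DESeq2 called 430. Of 21586 other loci edgeR called 2 (0.00927%), both upward, with 3394 at an unadjusted p under 0.05 (15.7%), 8.62% upward and 7.1% downward. RSAD1, a radical SAM domain protein, rose by 0.36 in log2 per SD of TBC1D1 (SE 0.055; adjusted p = 0.0299; r 0.830, rho 0.860). YEATS2, a chromatin reader of the ATAC acetyltransferase complex, rose by 0.33 (SE 0.052; adjusted p = 0.0359; r 0.826, rho 0.798). RSAD1 was lowest in castrated male 9 (6.81 CPM) and highest in castrated male 1 (22.1 CPM). YEATS2 was lowest in castrated male 4 (9.08 CPM) and highest in castrated male 1 (26.6 CPM). The library highest in TBC1D1 was thus the highest for both. Without it r was 0.784 for RSAD1 and 0.752 for YEATS2, and without the farthest libraries, castrated males 1 and 4, 0.751 and 0.690.

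The count of edgeR calls with TBC1D1 moved with single libraries. Leaving out 1 library gave 33 loci when female 8 was absent, 23 when female 6 was, 5 when castrated male 3 was, and 3 when female 2, female 3 or the library labelled female 10 was. It gave 1 when female 1, castrated male 1, 5, 7 or 8 or the library labelled castrated male 10 was absent, and 0 without females 4, 5 or 7 or castrated males 2, 4, 6 or 9. The 1 locus called without castrated male 1 was not RSAD1 or YEATS2. The 430 loci of DESeq2 hold both genes. By the permutation test of r, adjusted over all loci, 0 passed. The smallest p that this test can give is 1e-05, which over 21586 loci passes only where several loci reach it. The permutation test could thus not have passed RSAD1 and YEATS2 alone. RSAD1 passed in 12 of the 20 fits that leave out 1 library and YEATS2 in 7.

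The other loci of highest r with TBC1D1, under the same limits, did not pass. Among them were NSMAF (r 0.828), a factor of neutral sphingomyelinase activation, UBXN2B (0.819), a cofactor of the p97 ATPase, and S1PR2 (0.761), a sphingosine 1-phosphate receptor. PPP1R21 (0.751), ANKRD13A (0.739), DSTYK (0.726) and TRIM26 (0.724) followed, all with adjusted p from 0.0812 to 0.141 by edgeR. For NSMAF and PPP1R21 the value depended on the table: in log2(FPKM + 0.1) r was 0.339 and 0.062. Lowest in r were TADA1 (-0.771), of the SAGA complex, PIGP (-0.758), of glycosylphosphatidylinositol anchor synthesis, and GPD1 (-0.741), the glycerol 3-phosphate dehydrogenase that supplies the backbone of triglyceride. LGR4 (-0.740), an R-spondin receptor, and SIX2 (-0.728), a homeobox factor, followed, and all 5 had an adjusted p = 0.103 by edgeR. Without castrated males 1 and 4 GPD1 stood at -0.514 and SIX2 at -0.421.

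Lipogenesis stood on the other side for TBC1D1, in a pattern that rested on 1 library. With all libraries 0 of 11 slopes were above 0, with a median of -0.19 against 0.0018 over all loci, 0 called by edgeR and DESeq2, and 4 downward at an unadjusted p under 0.05 against 7.1% of all loci. In the 19 other libraries 3 of 11 were above 0, the median was -0.024, and 0 had an unadjusted p under 0.05. FASN itself had r -0.266 with TBC1D1 with all libraries and 0.145 without castrated male 1, and SCD -0.495 and -0.052. Castrated male 1 had 83.4 CPM of FASN, the lowest, beside the highest TBC1D1.

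No gene of the 8 pathway lists passed with TBC1D1. PRKAB2, a regulatory subunit of AMPK, had the highest r of the AMPK list, 0.648 (slope 0.15, SE 0.050; adjusted p = 0.166 by edgeR), and 0.634 without castrated male 1. CBL, an adaptor of the insulin receptor, had r 0.601, MTOR 0.574, CLTC, the clathrin heavy chain, 0.558, INSR 0.457 and SORT1 0.458. Without castrated male 1 these were 0.494, 0.437, 0.457, 0.353 and 0.292. For MTOR, INSR and SORT1 r was 0.157, -0.055 and -0.002 within females and 0.818, 0.805 and 0.852 within castrated males, a difference that was not tested. In log2(FPKM + 0.1) MTOR had r -0.178 over all libraries. HK2 had r -0.484, PPARG -0.543 and the MLXIPL locus -0.596, and without castrated male 1 these were -0.248, -0.301 and -0.404. RAB10 had r -0.157, LNPEP 0.334, IRS1 -0.174, SLC2A12 -0.280 and the AKT2 locus -0.168. Over the 8 lists edgeR and DESeq2 called 0 with TBC1D1, and the counts of slopes above 0 were 10 of 18 from the insulin receptor to AKT, 6 of 8 Rab regulators, 8 of 12 vesicle proteins and 7 of 11 AMPK and 14-3-3 genes. Over all loci 50.5% of slopes were above 0. The counts were 8 of 18 for glucose phosphorylation and glycogen, 5 of 10 regulators and 2 of 6 transporters. Macrophage markers had r 0.542 with TBC1D1 (adjusted permutation p = 0.122), 0.302 without castrated male 1 and 0.201 without castrated males 1 and 6, and their part in these values was not tested.

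TBC1D1 was read as 3 isoforms. The shares of 2 of them, TCONS_00085967 and TCONS_00085970, were apart between the labelled sexes when tested alone, and neither passed over all isoforms. SLC2A4 had 1 isoform, TCONS_00018194, with nearest reference transcript ENSSSCT00000026401, so its level carried no choice of form. TCONS_00085970 made up 88.5% ± 6.59 of TBC1D1 FPKM (SD, n = 20), at 11.02 ± 3.03 FPKM. TCONS_00085967 made up 8.49% ± 6.42 and TCONS_00085969, nearest to ENSSSCT00000022915, 3.0% ± 1.49. The tables name no nearest reference for TCONS_00085970 or TCONS_00085967.

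The share of TCONS_00085967 ran from 6.32% (female 7) through a median of 12.3% to 22.4% (female 5) in females. In castrated males it ran from 0% (castrated male 9 and the library labelled castrated male 10) through a median of 3.51% to 15.1% (castrated male 1). Of the castrated males only castrated male 1 at 15.1% and castrated male 2 at 8.22% lay inside the female range. The means were 12.7% ± 4.93 and 4.24% ± 4.75 (SD, n = 10 each), a difference of 8.51 percentage points (permutation p = 0.00116, two-sided). The share of TCONS_00085970 mirrored it (permutation p = 0.0016), with means of 84.3% ± 4.94 for females and 92.8% ± 5.19 for castrated males. Leaving out castrated male 1 gave a difference of 9.72 points (permutation p = 5e-05), and without both libraries numbered 10 it was 8.50 points (permutation p = 0.00213). The library labelled female 10 had 8.65% and the library labelled castrated male 10 had 0%. The first of these lies within the range of both sexes. The second lies outside the female range of 6.32 to 22.4%, although that library had levels of the females at the 11 loci that separated the other animals. Depth is not given for isoform FPKM, and an isoform listed at 0 may be a failed estimate.

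Set against all isoforms this difference did not pass. In the limma-trend fit of log2(FPKM + 0.1), TCONS_00085967 was higher in females by 2.04 (SE 0.563), with an unadjusted p = 0.00166 and an adjusted p = 1.0 over 33316 isoforms, of which 20 were called and 781 had an unadjusted p under 0.05. The adjusted p was 0.197 without castrated male 1. In the limma fit of isoform shares, TCONS_00085970 had an unadjusted p = 0.00166 and an adjusted p = 1.0, with 0 of 18380 isoforms called by limma and 349 at an unadjusted p under 0.05. That fit took mean shares of 10 to 90% and so left out TCONS_00085967. With a range of 5 to 95%, chosen after seeing the data, TCONS_00085967 had an unadjusted p = 0.000499 and an adjusted p = 1.0 among 24992 isoforms. In FPKM the main form TCONS_00085970 differed by -0.09 (SE 0.170; adjusted p = 1.0 by limma-trend).

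**Figure D5:**
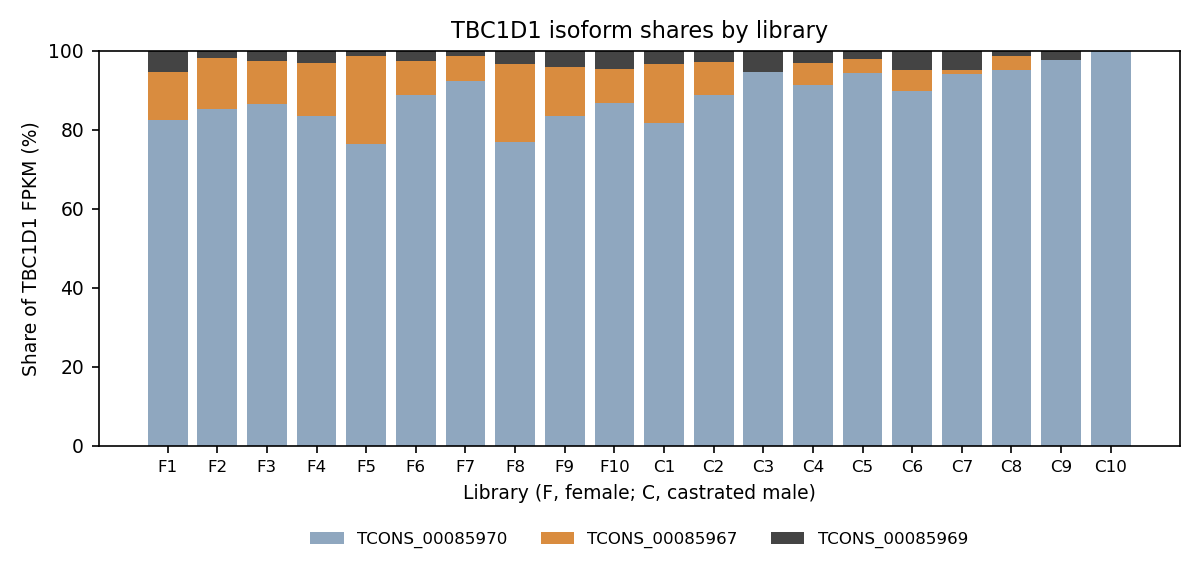
Share of TBC1D1 FPKM (percent, stacked to 100) in each of its 3 isoforms by library, females (F) at left and castrated males (C) at right. The orange segment, TCONS_00085967, spans 6.32 to 22.4% in females and 0 to 15.1% in castrated males, where castrated male 1 (C1) has the largest.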

How the data were processed

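Libraries of polyadenylated RNA from 20 backfats were compared by labelled sex and by age. The authors deposited raw read counts and FPKM for 23483 Cufflinks loci, and FPKM per isoform. Per the submitters' processing notes, the build was Sscrofa10.2 and the tools were Bowtie2 2.1.0.0, TopHat2 2.0.8, Cufflinks 2.1.1 and DESeq2, with no role stated. No source used here gives the counting tool, strand setting or annotation release, so reads of overlapping or antisense genes may be shared. Symbols came from Ensembl identifiers, which 12707 loci carried, 9360 of them with a symbol and 474 with several identifiers. No pair of libraries had identical counts (0 pairs). Each library is a separate animal, per the labels.

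Counts were fitted with edgeR 4.0.16 (R 4.3.3; quasi-likelihood, TMM, filterByExpr by group, 21587 loci, Benjamini-Hochberg at 0.05) for sex, for age with sex in the model, for their interaction, and for the z-scored log2 CPM (prior count 2) of each gene with sex in the model, all other loci tested. DESeq2 1.42.0, upper-quartile factors, no filter and libraries left out were alternatives. For sex, age and their interaction, limma-trend on log2 FPKM of loci was a further alternative. Isoforms with FPKM of at least 0.5 in 10 libraries were fitted with limma 3.58.1 on log2(FPKM + 0.1). Isoforms of SLC2A4 and TBC1D1 were tied to their loci by matching FPKM sums within 0.001. For the fit of shares over all isoforms, sums were matched on a log scale (10891 of 11351 loci, 11 left out for several matches). Shares were fitted on the arcsine scale. Permutation tests used 100000 resamples, two-sided (numpy 2.4.6, scipy 1.17.1), and paired levels used sign flips. Fits were tested on simulated data.

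Besides SLC2A4 and TBC1D1, named genes were the 10 of highest and 5 of lowest r with each, among loci with 1 symbol and a mean of at least 10 CPM, a fixed set of pathway genes, and up to 3 members of a list with the smallest p. Some genes that this rule selects are not reported here. A few list genes named beyond these were chosen after their values were seen. Members, lists and rules were chosen with earlier results of these data known.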

Additional observations from a re-analysis of the deposited data

Results flagged for a closer look

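Among the castrated males, castrated male 1 stood far from the other 9 in TBC1D1, at 23.5 FPKM, with a gap to the nearest library that passed Dixon's 95% critical value for 10 samples. In CPM its 35.7 did not pass (gap over range 0.421, critical value 0.466). The same library stood apart in the TBC1D1 isoform TCONS_00085967, at 3.55 FPKM, by the same measure, but not in that isoform's share of TBC1D1 (15.1%, gap over range 0.457). Chance passes this value in about 1 of 20 groups. Both genes and the 3 TBC1D1 isoforms were screened in each sex and unit, at both ends, so a pass can arise by chance. The isoform is a part of TBC1D1 FPKM, so its pass is not separate from that of the gene.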

How the results depend on the processing

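No paired analysis was possible because the replicate numbers follow accession order and pair no animals. The differences between the sexes were within their errors and changed sign. Values in FPKM plus 0.1 and plus 1, here and for the age slopes, came from limma-trend on log2 FPKM, and the others from edgeR. SLC2A4 stood at -0.056 without both libraries numbered 10, -0.023 in FPKM plus 0.1, -0.016 in FPKM plus 1, -0.15 with age added, and -0.093 to 0.13 with 1 library left out. TBC1D1 stood at 0.050 and 0.044 in FPKM plus 0.1 and plus 1, 0.016 with age added, and -0.12 to 0.073 with 1 library left out. The SLC2A4 difference of age slopes was 0.083 and 0.072 in FPKM plus 0.1 and plus 1, and -0.50 to 0.15 with 1 library left out, and that of TBC1D1 ran from -0.12 to 0.34. Loci called ran from 0 to 13 for sex, 0 to 1 for age and 0 to 1 for the difference of slopes with 1 library left out, and edgeR called 18 for sex without both libraries numbered 10.

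Loci above 0 with SLC2A4 numbered 225 by DESeq2, 5 without both libraries numbered 10, 59 without the sex term, 18 with age added and 4 to 89 with 1 library left out. Loci below 0 numbered 57 by DESeq2, 5 with upper-quartile factors, 0 without both libraries numbered 10, 8 without the sex term and 0 to 19 with 1 library left out. For TBC1D1, 184 were above 0 by DESeq2, 0 with upper-quartile factors, 0 without both libraries numbered 10 and 0 to 28 with 1 library left out, and 246 below 0 by DESeq2 and 0 to 5 with 1 library left out.

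Of single slopes, LNPEP on SLC2A4 was -0.017 without both libraries numbered 10 and SORT1 was 0.10 with age added. With 1 library left out, RAB10 on SLC2A4 ran from -0.029 to 0.0023, SORT1 from -0.069 to 0.12, FASN on TBC1D1 from -0.31 to 0.12 and SCD on TBC1D1 from -0.46 to 0.0027. The share difference of TCONS_00085969 was -0.494 points without both libraries numbered 10. Of 1796 values recomputed under an alternative, 1557 kept their direction and their side of the threshold or stayed near the reported value. A result that never passed counted among these if its sign held. Of the 329 values that belong to the main results, 251 were kept, 52 counts of loci moved and 26 values changed sign. The cause of these changes was not tested. The low counts of SLC2A4, 41 to 230 per library, limit the precision of its level and of every correlation with it.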
